A study of Mus musculus with 4 samples.

Results

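The RNA of 5 genes of the osmotic stress response was followed in the soleus of muHuR-KO and control mice: Nfat5, Slc5a3, Slc6a6, Akr1b3 and Hspa4l. These were 5 of the 23420 genes in the soleus table, and all 5 were among the 13287 genes that passed the filter on low values, a mean of at least 10 normalized counts over the 4 libraries. They were chosen on the normalized counts of Slc5a3, the myo-inositol carrier, which had been seen to be higher in both muHuR-KO libraries than in both controls, and the other 4 genes were added as members of its pathway. The values of the 5 genes are therefore given as a description, without p-values, and the direction of Slc5a3 is not a finding.

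NFAT5, also called TonEBP, is a transcription factor of the Rel family that accumulates in the nucleus when the medium around a cell becomes hypertonic. It binds tonicity-responsive elements and switches on carriers and enzymes that load the cell with small organic osmolytes, so that the cell regains its volume without raising its salt. The carriers are SMIT1 (Slc5a3), which takes up myo-inositol with sodium, and TAUT (Slc6a6), which takes up taurine. Aldose reductase (Akr1b3) makes sorbitol from glucose, and the HSP110 chaperone Hspa4l, also called OSP94, was named for its induction by osmotic stress. In skeletal muscle, taurine is an abundant free amino acid, and NFAT5 has been linked to myoblast migration and differentiation.

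The muHuR-KO mice carried Cre recombinase under the MyoD promoter and a floxed Elavl1 gene, which encodes the RNA-binding protein HuR, and the control mice had the same floxed gene without Cre. The labels write these genotypes as MyoDCre+;LoxP-/- and MyoDCre-;LoxP-/-. All 4 mice were C57BL/6 animals of 10 weeks, and one library was made per mouse, muHuR-KO 1-9 and 3-9 and control 3-8 and 3-12. Cre driven by MyoD acts in the muscle lineage, while the RNA came from the whole soleus, a slow postural muscle that also holds connective tissue, vessels and nerve.

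The libraries held 30362871 and 33348893 reads assigned to genes in muHuR-KO soleus, against 25767295 and 13301715 in control soleus. Elavl1 had 1210 and 1205 normalized counts in muHuR-KO soleus, against 1350 and 1190.1 in control soleus. The value covers the whole gene, not the deleted part alone, and so it does not check the genotype. The data showed skeletal muscle. The sum of 8 myofiber markers, among them the slow myosin Myh7 and the fast oxidative myosin Myh2, was high in each library. It was 2616021 to 3116518 normalized counts in muHuR-KO and 2995763 to 3402927 in control libraries. This sum does not tell the soleus from other muscles. The fast myosin Myh4 differed 9.29-fold between the muHuR-KO libraries and 12.9-fold between the controls, and the cause was not tested. Control 3-8 stood apart from the other 3 libraries by base composition. In the decile of tested genes with the lowest GC content (31.0 to 41.4%), the median log2 fold change of muHuR-KO was 0.99 over control 3-8 and -0.15 over control 3-12, and in the decile with the highest GC content it was -0.34 and 0.08. Of the 13287 genes, limma called 1287 higher and 17 lower in muHuR-KO against control 3-8 at an adjusted p under 0.05, or 482 higher and 351 lower after a correction for GC content. Against both controls together limma called 0 genes, with 102 at an unadjusted p under 0.05. On the recovered whole reads, edgeR and DESeq2 also called 0, with 131 and 74 genes at an unadjusted p under 0.05. Leaving out control 3-8 gave 2 genes and leaving out control 3-12 gave 1266, while the comparison with control 3-8 gave 0 genes in limma without the filter on low values or without a trend of the variance with level. The fold changes of the 5 genes are therefore given over both controls and over each of them.

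Sequence is shown where the layout of a gene bears on its counts or on HuR, which binds AU-rich stretches in the 3′ untranslated region of mRNAs. Slc5a3 lies on chr16:92058322-92087473 (GRCm38, plus strand), and its annotated start is only 52 bases downstream of the start of Mrps6, a gene for a mitochondrial ribosomal protein, at position 92058270 on the same strand. The stretch upstream of both starts, chr16:92058072-92058269 (RefSeq, GRCm38.p6, plus strand, 198 bases), is therefore shared by a gene that met the selection pattern and one that did not. It is printed with GC boxes (GGGCGG, searched on both strands, matches may overlap) in capitals.
Slc5a3 and Mrps6 upstream: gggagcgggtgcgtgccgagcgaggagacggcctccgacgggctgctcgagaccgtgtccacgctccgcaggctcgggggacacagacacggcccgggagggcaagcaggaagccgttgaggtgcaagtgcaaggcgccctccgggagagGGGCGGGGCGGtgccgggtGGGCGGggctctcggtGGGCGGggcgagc
The stretch holds 4 such boxes, all on the plus strand, and 24.3% of all RefSeq promoters held at least 1 in the same window. Promoters of 300 bases were available for 3 of the 5 genes (Nfat5, Slc5a3 and Hspa4l). The core of the tonicity-responsive element, TGGAAA on either strand, had 0 matches in each of the 3, and 21.4% of 32851 promoters held it. Sequence outside these 300 bases was not searched, so that elements elsewhere at the 3 genes are not covered.

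AU-rich pentamers (ATTTA) were counted in the 3′ untranslated region of the longest coding transcript of each gene (GENCODE M21, GRCm38). Nfat5 had 26 in 8365 bases, or 3.11 per kb, and Slc5a3 had 24 in 8260 bases, or 2.91 per kb. Hspa4l had 18 in 6714 bases, or 2.68 per kb. Slc6a6 had 1 in 4009 bases, or 0.249 per kb, and Akr1b3 had 0 in 363 bases. Nfat5, Slc5a3 and Hspa4l thus had long regions with many pentamers. By pentamers per kb they were at the percentiles 81.5, 79.0 and 76.1 of 12334 mouse untranslated regions. The median of these regions was 1.35 pentamers per kb, and Slc6a6 was at percentile 28.0. Part of that difference goes with length, as regions within 20% of the length of each of the 3 had medians of 1.91, 1.85 and 1.84 pentamers per kb. The stretches of 30 bases with most pentamers, the first where several tied, are printed for the 4 genes that have any. The pentamers are in capitals. The stretches were picked by pentamer count alone, and that of Slc6a6 holds only 1.
Nfat5: aaatcatgATTTAttaaATTTAtatctggc
Slc5a3: gggctttttaATTTAATTTAattttatttt
Hspa4l: ATTTAttttatggtttcttgtcaagATTTA
Slc6a6: caactgtgactgtATTTAgcacaagagaaa
A match is a description of letters, and HuR binding was not measured in these libraries.

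The factor itself, Nfat5 (ENSMUSG00000003847.16, chr8:107293470-107379517, plus strand), did not separate the genotypes. It had 3453 and 2547 normalized counts in muHuR-KO soleus, against 1137 in control 3-8 and 3212 in control 3-12. The low value of control 3-8 sets the difference, and control 3-12 lies between the muHuR-KO libraries. The means were 3000.4 ± 641 in muHuR-KO and 2174 ± 1467 in control soleus (SD, n = 2 each), and the gap between the controls, 2.83-fold, was wider than that between the muHuR-KO libraries, 1.36-fold. The log2 fold change was 0.63 (SE 0.47, limma on log2 of the normalized count plus 1) over both controls, 1.38 over control 3-8 and -0.11 over control 3-12. Its direction thus turned with the control used.

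Slc5a3 (ENSMUSG00000089774.2), the sodium-dependent carrier of myo-inositol, had the largest difference among the 5 genes. It had 617 and 460.02 normalized counts in muHuR-KO soleus, against 102 in control 3-8 and 289 in control 3-12. Both muHuR-KO libraries were above both controls, which is the pattern the choice used. These values rest on 832 and 649 reads in muHuR-KO and 104 and 157 reads in control libraries. The exact 95% Poisson intervals, which cover counting error only, were 576 to 660 and 425 to 497 normalized counts in muHuR-KO, against 83.0 to 123 and 245 to 338 in control soleus. The order of these values was fixed by the choice of the gene. Slc5a3 was 6.07-fold and 4.53-fold higher in the muHuR-KO libraries than in control 3-8, and 2.14-fold and 1.59-fold higher than in control 3-12. The means were 538 ± 111 in muHuR-KO and 195 ± 132 in control soleus (SD, n = 2 each). The log2 fold change was 1.63 (SE 0.48) over both controls, 2.38 over control 3-8 and 0.88 over control 3-12, and by the first of these it ranked 14 of the 13287 genes. The controls differed from each other 2.84-fold, so that the size of the difference depended on the control. In RNA from whole muscle, fewer cells of a type and less RNA per cell cannot be told apart.

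Mrps6 did not share this pattern. It had 368 and 260.1 normalized counts in muHuR-KO soleus, against 356 in control 3-8 and 298 in control 3-12, a log2 fold change of -0.08 (SE 0.30) over both controls. The ratio of Slc5a3 to Mrps6 within a library was 1.68 and 1.77 in muHuR-KO, against 0.285 and 0.969 in control soleus. The exons of Slc5a3 share 159 of 10913 bases (1.46%) with those of Mrps6 and of the transcript Gm49711 on the same strand, where a read cannot be given to one gene.

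Slc6a6 (ENSMUSG00000030096.8, chr6:91684053-91759066, plus strand), the taurine carrier, was the most abundant of the 5 genes per kb of exon and did not separate the genotypes. It had 6293 and 4145 normalized counts in muHuR-KO soleus, against 5340 in control 3-8 and 5163 in control 3-12. Both controls lay between the muHuR-KO libraries, which differed 1.52-fold. The means were 5219 ± 1519 in muHuR-KO and 5251 ± 125 in control soleus (SD, n = 2 each), and the log2 fold change was -0.04 (SE 0.29) over both controls, -0.06 over control 3-8 and -0.02 over control 3-12. Unlike the other members with many reads, Slc6a6 had nearly the same level in both controls, 1.03-fold apart. Its exons share 117 of 8457 bases (1.38%) with Gm44981 on the opposite strand, and the strand setting of the counting was not given in the sources used here.

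Akr1b3 (ENSMUSG00000001642.18, chr6:34302434-34317478, minus strand), which encodes aldose reductase, was near the floor of detection. It had 14.1 and 11.3 normalized counts in muHuR-KO soleus, from 19 and 16 reads, against 19.5 in control 3-8 and 14.7 in control 3-12, from 20 and 8 reads. Both muHuR-KO libraries were below both controls, but the Poisson intervals of 8.48 to 22.0 and 6.48 to 18.4 in muHuR-KO overlapped those of 11.9 to 30.2 and 6.35 to 29.0 in control soleus. A difference was not detectable at these counts. The log2 fold change was -0.40 (SE 0.51) over both controls, -0.59 over control 3-8 and -0.20 over control 3-12. The count is uncertain also because 4 other annotated genes, 3 of them processed pseudogenes, match its transcript over 948 to 1352 of 1387 bases at 99.1 to 99.7% identity, and how reads that fit several copies were counted was not given in the sources used here. The other 4 members had 0 such copies.

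Hspa4l (ENSMUSG00000025757.12, chr3:40744495-40796103, plus strand) was the other gene with both muHuR-KO libraries above both controls. It had 377 and 388 normalized counts in muHuR-KO soleus, against 169 in control 3-8 and 298 in control 3-12. The muHuR-KO libraries were close to each other, and control 3-12 was nearer to them than control 3-8 was. The ratio to control 3-8 was 2.23 and 2.30, and the ratio to control 3-12 was 1.27 and 1.30. The Poisson interval of the lower muHuR-KO library, 345 to 412, overlapped that of control 3-12, 254 to 348. Hspa4l averaged 383 ± 7.38 in muHuR-KO and 233 ± 91.3 in control soleus (SD, n = 2 each), with a log2 fold change of 0.77 (SE 0.34) over both controls, 1.17 over control 3-8 and 0.36 over control 3-12. Hspa4, its closest relative and a chaperone expressed in most tissues, had 6052 and 5311 normalized counts in muHuR-KO, against 4605 and 6173 in control soleus, and the ratio of Hspa4l to Hspa4 was 0.0623 and 0.0730 in muHuR-KO, against 0.0367 and 0.0483 in control libraries.

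**Figure D1:**
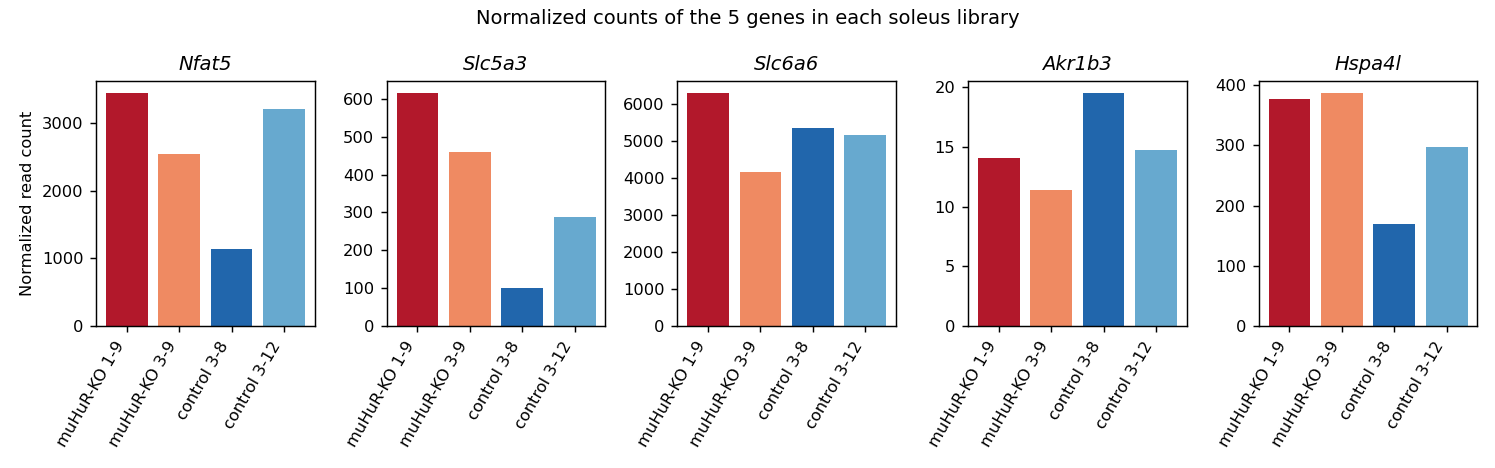
Normalized read counts (vertical axes, each from 0) of the 5 genes, with 1 bar per library, the muHuR-KO libraries in red and orange left of the controls in blue. Slc5a3 was at 617 and 460.02 in muHuR-KO against 102 and 289 in control soleus, whereas the Nfat5 bar of control 3-12 (3212) lies between those of muHuR-KO.

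The plot of normalized counts by library shows that control 3-8 held the lowest value of Nfat5, Slc5a3 and Hspa4l, but the highest of Akr1b3. Levels were then compared between genes per kb of exon, as counts of long genes are larger at the same number of RNA molecules. All annotated exon bases of a gene were taken as its length. Slc6a6 averaged 619 normalized counts per kb over the 4 libraries, Nfat5 141, Slc5a3 33.6, Hspa4l 26.1 and Akr1b3 1.78. Neighbours in this order were kept apart in every library for Slc6a6 and Nfat5, while Slc5a3 and Hspa4l changed places. Slc5a3 was at 56.5 and 42.2 per kb in muHuR-KO, against 9.31 and 26.5 in control soleus, and Hspa4l was at 32.0 and 32.9 per kb in muHuR-KO, against 14.3 and 25.3 in control soleus. By this length Slc5a3 was below Hspa4l in control 3-8 alone. The order of these genes depends on the length used. Hspa4l has 11792 annotated exon bases but 9479 in its longest coding transcript, and Slc5a3 has 10913 by both. Akr1b3 has 8384 annotated exon bases but 1387 in its longest coding transcript, so that 1.78 may understate its level.

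**Figure D2:**
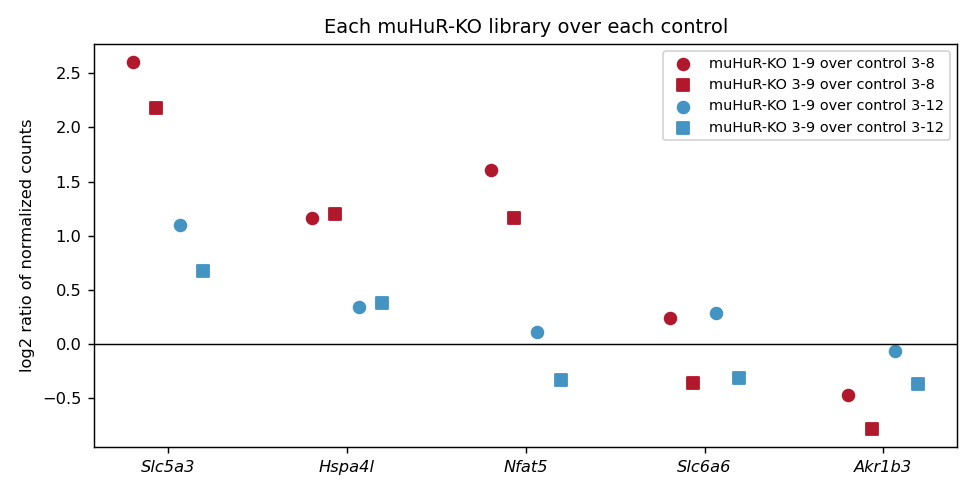
Log2 ratio of normalized counts of each muHuR-KO library over each control (vertical axis), 4 points per gene, red over control 3-8 and blue over control 3-12, circles for muHuR-KO 1-9 and squares for muHuR-KO 3-9. All 4 points are above 0 for Slc5a3 and Hspa4l and below 0 for Akr1b3, and the points of Nfat5 and Slc6a6 lie on both sides.

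The plot of library ratios shows the same order of directions for single libraries. The lowest muHuR-KO value divided by the highest control value was 1.59 for Slc5a3, on which the choice was made, and 1.27 for Hspa4l, and it was 0.793 for Nfat5 and 0.776 for Slc6a6, which lack the pattern. Of the 5 genes, 2 were higher in both muHuR-KO libraries than in both controls, a pattern that 9.57% of all tested genes had, and 1 was lower, as were 13% of all tested genes. These shares were 1272 and 1727 genes, and became 1650 and 1240 with TMM scaling. Of the 1272 genes, 840 had control 3-8 below control 3-12, as Slc5a3 and Hspa4l did. Against both controls limma called 0 of the 5 genes higher or lower, as it called 0% of all genes in each direction. Against control 3-8 alone, 3 of the 5 were called higher and 0 lower, against 9.69% and 0.128% of all genes. After the GC correction 2 were called higher and 0 lower, against 3.65% and 2.66% of the 13199 genes with a GC value. These counts are no test of the 5 genes. Slc5a3 was chosen on the same values and the other genes were added for it, so that nothing is read from the counts.

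The 3 genes with low values in control 3-8 were also poor in GC. Their longest transcripts had 42.8% (Nfat5), 41.6% (Slc5a3) and 39.5% (Hspa4l) GC, against 51.2% for Slc6a6 and 48.6% for Akr1b3. Over control 3-8, Slc5a3 exceeded the median of its decile of genes by GC content by 1.79 on the log2 scale, Nfat5 by 0.79 and Hspa4l by 0.19. The value of Hspa4l was thus near the median of genes with like GC content. The part of base composition in these differences was not tested. Over control 3-12, where the trend was slight, Slc5a3 exceeded its decile by 0.97 and Hspa4l by 0.51, and Nfat5 was at -0.03. With log2 values corrected for GC, the log2 fold change over both controls was 1.33 for Slc5a3, 0.39 for Hspa4l and 0.38 for Nfat5. Slc5a3 and Hspa4l still had both muHuR-KO libraries above both controls with the GC correction and with TMM scaling.

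**Figure D3:**
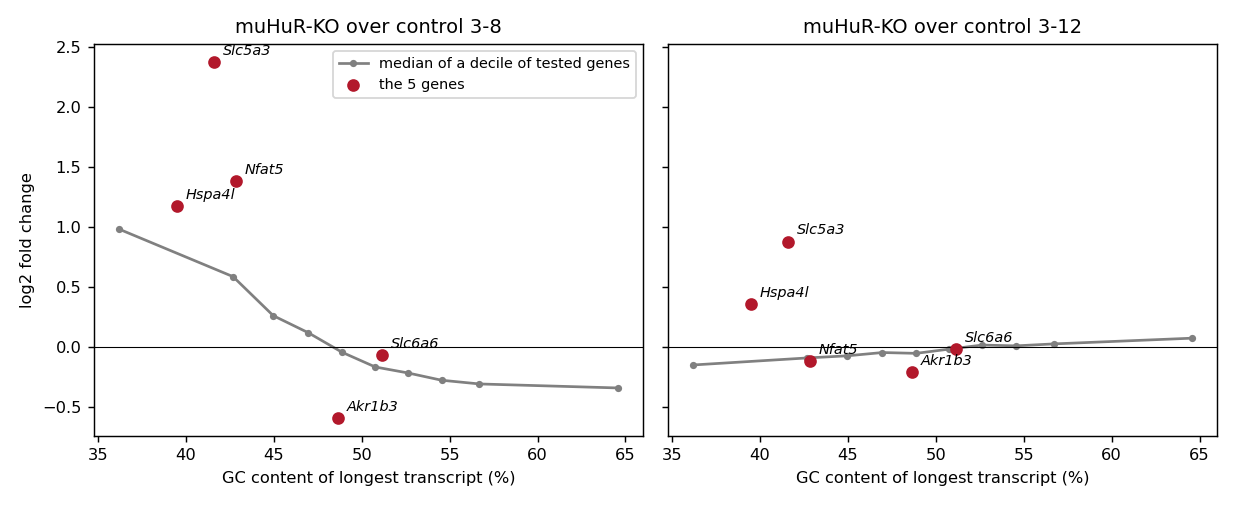
Log2 fold change of the mean of the muHuR-KO libraries over control 3-8 (left) and over control 3-12 (right) against the GC content of the longest transcript (%), with the 5 genes in red and the medians of deciles of the tested genes in grey. The grey line falls from 0.99 to -0.34 on the left and is nearly flat on the right, and Slc5a3 lies 1.79 and 0.97 above it.

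The plot against GC content thus shows how far each gene was from genes of like composition. Genes with the profile most like that of Slc5a3 were taken as those with the smallest Euclidean distance between centred log2 values over the 4 libraries, among 11181 genes with a mean of at least 50. They were Col11a1, a fibrillar collagen chain (distance 0.34), Postn, the matrix protein periostin (0.48), Map2, a microtubule-associated protein (0.55), Hecw2, a ubiquitin ligase (0.55), and Fat3, an atypical cadherin (0.57). Col11a1 had 783 and 535 normalized counts in muHuR-KO soleus, against 159 and 425 in control soleus, and Postn had 3788 and 1959 in muHuR-KO, against 658 and 1755 in control soleus. Nfat5 was at rank 213 in likeness to Slc5a3, Hspa4l at rank 292 and Slc6a6 at rank 4986. Nfat5 was itself most like Fndc3a (0.07), Lrif1 (0.08) and Tfpi (0.08), with Hspa4l at rank 1273 and Slc5a3 at rank 2874.

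As collagen and periostin are made by connective tissue cells, the markers of other cells were set beside Slc5a3. The 8 fibroblast markers summed to 74972 and 44916 normalized counts in muHuR-KO 1-9 and 3-9, against 40445 and 45069 in control 3-8 and 3-12. The sum was highest in muHuR-KO 1-9, where Slc5a3 was highest too, but muHuR-KO 3-9 was level with control 3-12, over which Slc5a3 was 1.59-fold higher. None of the 8 was at 0 in any group, and 2 (Col1a2 and Col3a1) were above both controls in both muHuR-KO libraries, beside 9.57% of all tested genes. Macrophage markers (5 of 6 in the table) summed to 651 to 1040 in muHuR-KO and 519 to 686 in control libraries. Of the 5, 1 (Mrc1) was above both controls in both muHuR-KO libraries, beside the same 9.57% of all tested genes. Adipocyte markers (6 of 6) summed to 9538 to 12089 in muHuR-KO, against 8913 in control 3-8 and 11861 in control 3-12, and smooth muscle and pericyte markers (6 of 6) to 12711 to 14578 in muHuR-KO, against 10390 in control 3-8 and 13623 in control 3-12. The macrophage, adipocyte and smooth muscle sums were thus lowest in control 3-8, as was Slc5a3. The median log2 fold change of markers over control 3-8 was 0.29 for macrophages, 0.64 for adipocytes and -0.19 for smooth muscle and pericytes. Single markers went both ways, as Cd163 was at 1.49 and Cx3cr1 at -0.28 among macrophage markers. Endothelial markers summed to 12049 to 17412 in muHuR-KO and 14646 to 15585 in control libraries. Schwann cell and nerve markers summed to 2811 to 5254 in muHuR-KO and 2470 to 4628 in control libraries. The part of these cells in the level of Slc5a3 was not tested.

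Beyond the 5 genes, 97 gene symbols of the same response and of related gene families were listed by role. Of these, 96 were in the table and 87 were tested. Against both controls 0 of the 87 were called, with 0 at an unadjusted p under 0.05 in limma. Against control 3-8, 9 (10.3%) were called higher and 0 lower, beside 9.69% of all genes, and after the GC correction 3 were higher (Atm, Lrrc8b and Aqp4) and 1 lower (Slc44a1), beside 3.65% and 2.66% of all genes. The median log2 fold change of the 87 over both controls was -0.02, beside -0.01 for all tested genes. The median of these 87 genes thus lay near that of all genes. The lists also hold relatives and regulators with other roles, so that this median gives no verdict on the response.

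Among genes of myo-inositol handling, the 13 tested had a median of -0.08 over both controls. Impad1, a phosphatase related to the inositol monophosphatases, was the 1 called against control 3-8, with 1641 and 1908 normalized counts in muHuR-KO soleus, against 723 in control 3-8 and 2042 in control 3-12 (log2 fold change over control 3-8 1.29, limma adjusted p = 0.00902, and 0.409 after the GC correction). Inpp1, an inositol polyphosphate phosphatase, had 167 and 195 in muHuR-KO, against 145 and 143 in control soleus. Isyna1, which makes myo-inositol from glucose 6-phosphate, had 138 and 114 in muHuR-KO, against 145 and 109 in control soleus. The synthetic enzyme thus did not share the pattern of the carrier. Of the other carriers of myo-inositol, Slc2a13 (HMIT) had 39.3 and 38.3 in muHuR-KO, against 16.6 and 57.0 in control soleus, and Slc5a11 (SMIT2) was at 0 reads in all 4 libraries, as was Miox, the oxygenase that degrades myo-inositol. Per kb of exon, Slc2a13 was at 4.70 and 4.57 normalized counts in muHuR-KO and 1.98 and 6.82 in control libraries, so that Slc5a3 was the most abundant of the 3 carriers in each library.

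Of 15 other genes for organic osmolytes, with a median of -0.03, Gpcpd1 alone was called against control 3-8. It encodes a glycerophosphocholine phosphodiesterase, which degrades the osmolyte glycerophosphocholine, and had 4619 and 5780 normalized counts in muHuR-KO soleus, against 2077 in control 3-8 and 4172 in control 3-12. Both muHuR-KO libraries were above both controls, as in 9.57% of all tested genes. The log2 fold change was 0.81 over both controls and 1.31 over control 3-8, or 0.37 and 0.28 after the GC correction. Slc44a1, a choline carrier, had 600 and 668 in muHuR-KO, against 789 and 817 in control soleus, and was called lower than control 3-8 only after the GC correction (-1.01, limma adjusted p = 0.00440). The betaine carrier Slc6a12, a classical target of NFAT5, was barely detected, at 2.22 and 5.67 in muHuR-KO, against 5.86 and 0 in control soleus. Sord, which turns sorbitol into fructose, had 2297 and 2369 in muHuR-KO, against 3488 and 1908 in control soleus, so that the controls lay on both sides. Among the aldo-keto reductases related to Akr1b3, of which 4 were tested and 0 called, Akr1b10 had 898 and 803 normalized counts in muHuR-KO soleus, against 1013 and 896 in control soleus.

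Of 16 regulators of NFAT5, with a median of -0.15, 3 were called higher than control 3-8, beside 9.69% of all genes, and of these Atm alone after the GC correction, beside 3.65%. Atm, the DNA damage kinase, had 369 and 437 normalized counts in muHuR-KO soleus, against 137 in control 3-8 and 561 in control 3-12 (1.55 over control 3-8, limma adjusted p = 0.00878), and the RNA helicases Ddx5 and Dhx9 followed at 0.87 and 0.82 (limma adjusted p = 0.515 and 0.389 after the GC correction). All 3 had the lowest value in control 3-8, and in Atm and Dhx9 control 3-12 was the highest. Atm and Dhx9 are named for this call, after their values were seen. Ptpn11, the phosphatase SHP-2, had 2741 and 3543 in muHuR-KO, against 4059 and 4624 in control soleus (log2 fold change -0.48, limma adjusted p = 0.9999 over both controls). Ptpn11, Ccm2, Map3k3 and Abl1, 4 of the 16, had both muHuR-KO libraries below both controls, beside 13% of all genes. The scaffold Ccm2 and the kinase Map3k3 carry the osmotic signal to p38.

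Of 10 other targets of NFAT5, with a median of -0.02, 0 were called. Sgk1, a kinase that controls ion transport, had 1171 and 2129 normalized counts in muHuR-KO soleus, against 1309 and 984 in control soleus, and the heat shock gene Hspa1b had 356 and 424 in muHuR-KO, against 592 and 278 in control soleus. In both genes the groups overlapped. Of 10 relatives of Hspa4l in the HSP110 and HSP70 family, 0 were called and the median was 0.01; Hsph1, an HSP110 chaperone, had 1802 and 2045 in muHuR-KO, against 1856 and 1917 in control soleus. Both muHuR-KO libraries were above both controls in 0 of these 10, beside 9.57% of all tested genes, so that nothing is read from this count. Of the 4 calcineurin-dependent relatives of Nfat5, 0 were called, and Nfatc1 had 1712 and 1392 in muHuR-KO, against 2092 and 1926 in control soleus.

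Of 15 genes for cell volume channels and ion cotransport, which move salt and water rather than organic osmolytes, 4 were called higher than control 3-8, beside 9.69% of all genes, and 2 (Lrrc8b and Aqp4) after the GC correction, beside 3.65% of all genes. The median of the 15 over control 3-8 was 0.40. Lrrc8b, a subunit of the volume-regulated anion channel, had 53.4 and 63.8 normalized counts in muHuR-KO soleus, against 15.6 in control 3-8 and 57.0 in control 3-12 (1.84, limma adjusted p = 0.0192). Aqp4, the water channel of fast muscle fibers, had 930 and 970 in muHuR-KO, against 323 in control 3-8 and 1111 in control 3-12 (1.55, limma adjusted p = 0.00852). The fast myosin Myh1 was also lowest in control 3-8, with 152186 and 158075 in muHuR-KO, against 54545 in control 3-8 and 229802 in control 3-12 (1.51). Myh4 differed 12.9-fold between the controls and went the other way. It had 18766 and 2021 in muHuR-KO, against 21982 in control 3-8 and 1701 in control 3-12 (-1.84 over control 3-8). The median of the 8 fast fiber markers over control 3-8 was -0.26. The 8 fast fiber markers summed to 792226 to 955617 in muHuR-KO and 880475 to 951923 in control libraries, with none at 0, and their part in the level of Aqp4 was not tested. Slc12a2, the sodium-potassium-chloride cotransporter, was at 0.98 (limma adjusted p = 0.0178, and 0.195 after the GC correction). Clcn3, a chloride-proton exchanger named after its values were seen, was at 0.90 (limma adjusted p = 0.0455, and 0.749 after the GC correction). All 4 called genes had their lowest value in control 3-8, and 3 of them (Aqp4, Slc12a2 and Clcn3) had their highest in control 3-12, unlike Slc5a3. With 1 control library this comparison has a single residual degree of freedom.

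**Figure D4:**
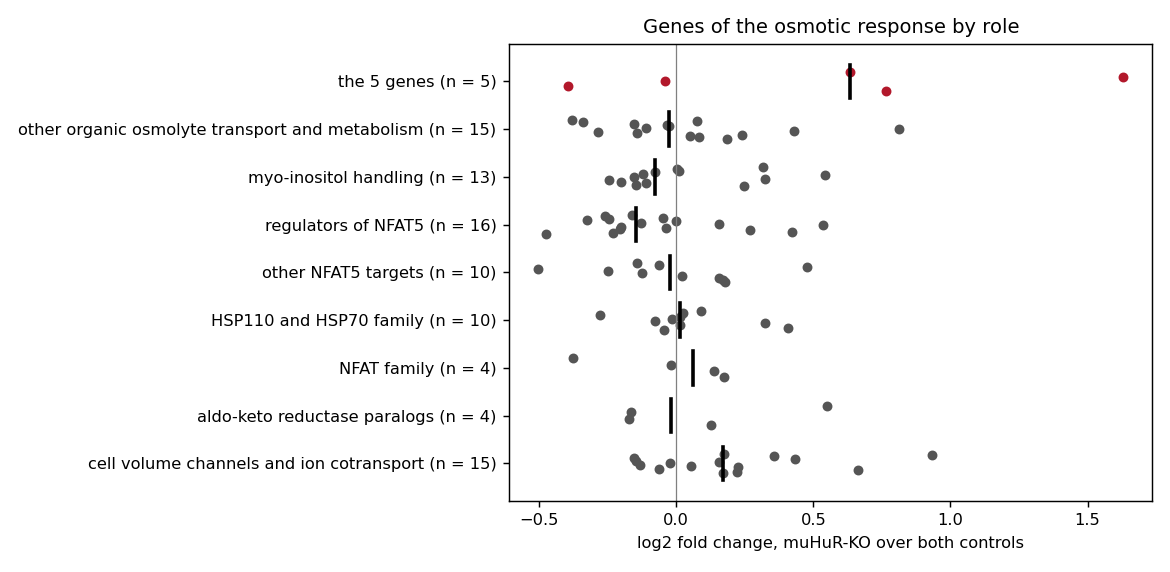
Log2 fold change of muHuR-KO over both controls (horizontal axis) for the 5 genes in red and the tested genes of each list in grey, with the median of each list as a black bar. Slc5a3 (1.63) lies to the right of every listed gene, and the medians of the other lists lie between -0.15 and 0.17.

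The plot of lists by role shows that Slc5a3 had the largest log2 fold change over both controls of all the tested genes plotted there. It was chosen for being high, so that this place is a description. The labels give 2 mice per genotype, and the SDs measure only the spread between these libraries. The SEs of limma also draw on the spread of other genes of like level. Over both controls they rest on 2 residual and a median of 5.62 prior degrees of freedom. An SE can thus be smaller than the gene's own libraries would give.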

How the data were processed

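Soleus RNA of 2 muHuR-KO and 2 control mice was sequenced. Per the labels and the study's methods, the authors aligned reads with TopHat2 (version 2.0.10) to mm10 (GRCm38), counted genes with HTSeq (version 0.6.1) and deposited counts divided by DESeq2 size factors, a signal per gene and library. The annotation and strand setting were not given in the sources used here. The deposited table also holds columns of the authors' own comparison, namely log2 fold changes, their standard errors and test statistics (score), and p-values, which were not used. Whole reads were recovered from the deposited signal: 100% of values were whole within 0.01 reads, which gave the depths.

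The main test was limma (version 3.58.1, R 4.3.3) with trend on log2(normalized count + 1) for 13287 genes (mean normalized count 10 or more), with Benjamini-Hochberg adjustment over all of them and a threshold of 0.05. A fold change on this scale is understated for low genes. Control 3-12 formed a group of its own in the fit against control 3-8. GC content was corrected within each library by loess (span 0.4) on the longest transcript, for the 99.3% of tested genes with a value. Near copies were matched at 95% identity over at least 200 bases. Alternatives were edgeR (version 4.0.16) and DESeq2 (version 1.42.0) on whole reads, TMM scaling, pseudocounts of 0.5 and 5, no filter, a mean of at least 50, no trend, the GC correction and leaving out each library. The fits were tested on simulated counts.

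The genes and lists were chosen with earlier results of these data known. Named were the 5 genes in every library, Mrps6 and genes overlapping a member, up to 4 genes of smallest p per list, the 5 genes nearest to Slc5a3 and the 3 nearest to Nfat5 in profile, and Elavl1. Genes named outside this rule were chosen after their values were seen: Isyna1, Slc2a13, Slc5a11, Miox, Slc6a12, Sord, Atm, Dhx9, Abl1, Hspa1b, Hsph1, Clcn3, Col3a1, Myh2 and Myh4.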

Additional observations from a re-analysis of the deposited data

How the results depend on the processing

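Against both controls, leaving out 1 library gave 0 to 1266 called genes, with 2 without control 3-8 and 1266 without control 3-12. With TMM, edgeR, DESeq2, either pseudocount, either filter, no trend or the GC correction, 0 were called. Against control 3-8, 1304 genes were called in the report, 0 without the filter, 0 without the trend and 833 with the GC correction (482 higher, 351 lower), and 1387 with edgeR, 1035 with DESeq2 and 1583 with TMM. Leaving out a muHuR-KO library leaves that comparison no residual degrees of freedom, and it then gives values with no test. Genes with both muHuR-KO libraries above both controls numbered 1272, or 2070 without the filter and 841 at a mean of at least 50; TMM changed the split of above and below from 1272 and 1727 to 1650 and 1240. The cause of these shifts was not tested. Of 123 alternative values of the 5 genes, 118 moved by less than the SD between replicates. The other 5, all over control 3-8, were 0.80 for Nfat5, 1.68 for Slc5a3 and 0.29 for Hspa4l with the GC correction, and 1.22 and 1.23 for Hspa4l with TMM and edgeR. The count of 118 is no measure of stability. Leaving out 1 library cannot move a value by more than this SD, and the filters and the trend leave it unchanged. Nfat5 over both controls turned from 0.63 to -0.11 without control 3-8 and still counted among the 118. Over both controls, leaving out 1 library gave -0.11 to 1.38 for Nfat5, 0.88 to 2.38 for Slc5a3, 0.36 to 1.17 for Hspa4l, -0.34 to 0.26 for Slc6a6 and -0.59 to -0.20 for Akr1b3, which was not tested at a mean of at least 50. No paired analysis was possible because the groups share at most 1 leading number in the labels: muHuR-KO 3-9 and both controls share a leading 3, whose meaning the labels do not give, and muHuR-KO 1-9 does not. Akr1b3 had 8 to 20 reads per library, and the part of depth and of near copies in this low count was not tested.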
